A study of Mus musculus with 40 samples.

Results

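The difference in messenger RNA between Malt1-/- and wild-type (WT) TH1 cells was compared between 72 h and 48 h after induction. The quantity followed throughout is the change of the Malt1 effect: Malt1-/- minus WT at 72 h, minus the same difference at 48 h. The comparison used the arrays titled TH1, 20 of the 40 in the series, and took in every gene detected on at least 5 of the 40 arrays, 10730 of the 19057 genes with a named probe. The groups were Malt1-/- TH1 cells at 72 h, WT TH1 cells at 72 h, Malt1-/- TH1 cells at 48 h and WT TH1 cells at 48 h, with 5 arrays in each. All came from the C57BL6 background, from animals of 8 to 12 weeks, and began as naive CD4+CD62L+ T cells of spleen and lymph nodes that were induced to differentiate. The Malt1 deletion is labelled by genotype alone, with no driver or cell type named, so every cell of the donor animals may carry it. The labels do not say how the cells were stimulated, nor that each sample of a group is a separate animal or culture. The spread that the p-values rest on may thus be a technical one.

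MALT1 is a scaffold and a protease that carries the signal of the T cell receptor to NF-kappaB. As a protease it cuts inhibitors of that pathway and RNA-binding proteins that destroy cytokine messages. TH1 cells make interferon gamma under the transcription factor T-bet (Tbx21), while TH2 cells make interleukins 4, 5 and 13 under GATA3. A gene can enter this comparison in 4 ways, since either genotype may move up or down between the times.

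The labels of genotype and lineage were checked first, by genes that define them. The time labels had no such check. At 72 h Malt1 itself gave 5.92, 7.24, 5.96, 6.73 and 6.67 on the Malt1-/- arrays, against 11.11, 11.27, 10.91, 11.36 and 12.46 on the WT arrays (log2 signal after background correction and scaling, where probes without signal lie near 4.5). At 48 h it gave 6.29, 6.42, 7.36, 6.80 and 6.63 on the Malt1-/- arrays, against 11.75, 10.45, 10.35, 10.58 and 10.88 on the WT arrays. Its level was lower in Malt1-/- cells at both times, with no overlap, and the effect was -4.92 ± 0.30 at 72 h and -4.10 ± 0.30 at 48 h (log2, SE). The change of -0.82 ± 0.42 did not pass the test (limma, Benjamini-Hochberg adjusted p = 0.91). The probe stayed above background on all Malt1-/- arrays. Each of the 6 T cell markers tested (Cd3d, Cd3e, Cd3g, Cd4, Cd2 and Thy1) was detected on all 20 arrays, as were Ifng and Tbx21, which define TH1 cells. Il17a and Il17f, which define TH17 cells, were detected on few: Il17a on 1 Malt1-/- 72 h array and 1 WT 48 h array, and Il17f on that WT 48 h array alone (replicate 4).

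Some arrays lay nearer another group than their own in overall profile. Over all genes, 4 of the 20 TH1 arrays correlated more closely with the mean of another group than with that of the other arrays of their own. The own mean held 1 array fewer than the others, which slightly favours another group, so narrow differences in r decide little. Replicate 2 of Malt1-/- at 72 h was closest to the Malt1-/- 48 h mean (r = 0.9887, against 0.9839 with its own group), and replicate 2 of Malt1-/- at 48 h was closest to the Malt1-/- 72 h mean (0.9887 against 0.9880). Replicate 4 of WT at 72 h and replicate 1 of WT at 48 h were closest to the Malt1-/- 48 h mean (0.9889 against 0.9653, and 0.9861 against 0.9857). The first pair were each other's nearest array, and so were the second pair, both at r = 0.988. All arrays were kept in the results that follow, and counts are also given without these 4. Since that choice uses the same values as the test, a smaller spread without them is partly built in. The TH1 arrays had median raw signals of 131.8 to 179.4 and 14870 to 17409 detected probes, and the number of arrays limits the precision.

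Only 8 of the 10730 genes changed their Malt1 effect between 48 h and 72 h at an adjusted p under 0.05, which is 0.0746% of those tested (limma, eBayes). For 6 genes, Scin, Ccr8, Efna5, Nts, H1f2 and Krt16, the difference Malt1-/- minus WT was higher at 72 h (0.0559%). For Upk1a and Slc14a1 it was lower (0.0186%). At an unadjusted p under 0.05 there were 599 genes, or 5.58% of those tested, split into 299 above 0 (2.79%) and 300 below (2.80%). If no gene changed, a share equal to the threshold would be expected, so the 599 are not read as changed genes. The median change over all genes was -0.004, and the median standard error of a change was 0.28, against 0.20 for the genotype difference at 72 h alone. In these bulk samples, fewer cells of a type and less RNA per cell cannot be told apart. Without the 4 arrays named above, 31 genes were called (0.289%), 24 higher (0.224%) and 7 lower (0.0652%) at 72 h, and they included all 8.

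**Figure D1:**
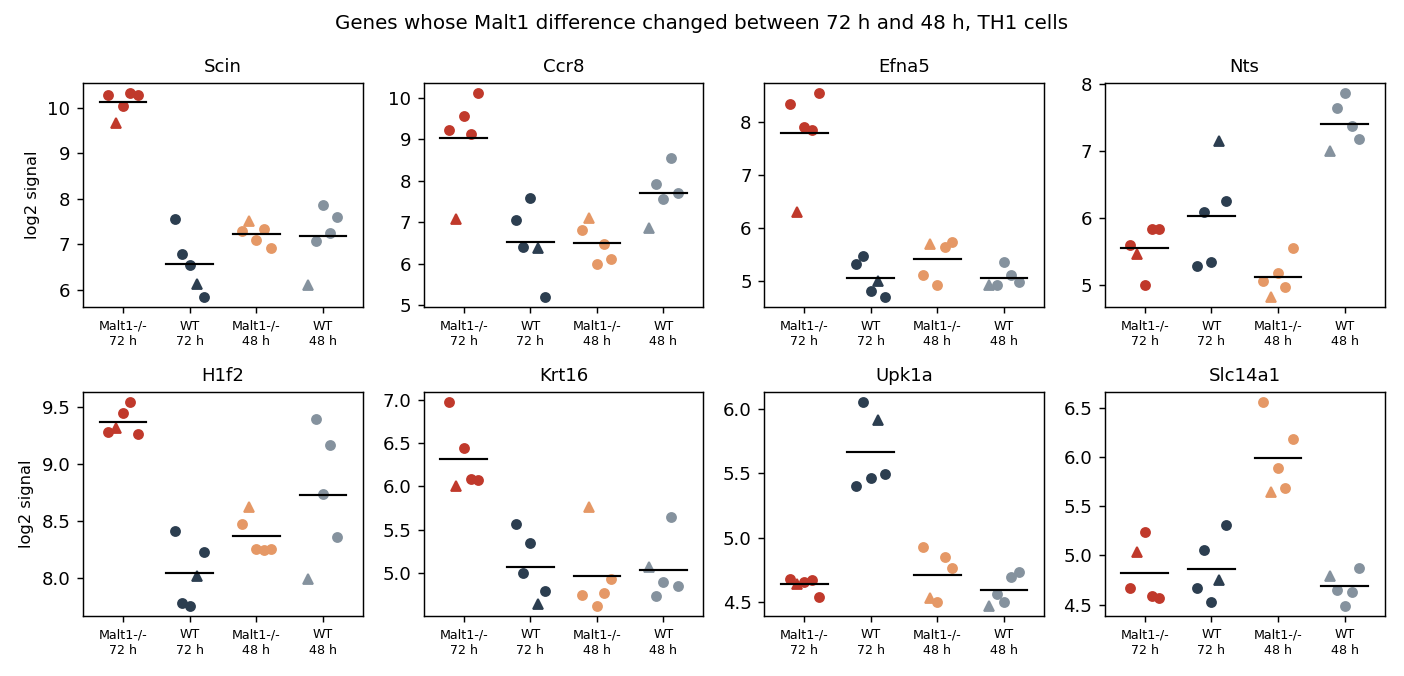
Log2 signal of the 8 genes called for the change of the Malt1 effect, 1 point per array, for Malt1-/- 72 h, WT 72 h, Malt1-/- 48 h and WT 48 h TH1 cells (5 arrays each). Bars are group means and triangles mark the 4 arrays nearer another group's mean. Scin, Efna5 and Krt16 stand high in Malt1-/- cells at 72 h only, and Upk1a stands high in WT cells at 72 h only.

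The 3 called genes with the largest changes are introduced by their start sites, which are shown so that the windows behind the search for motifs can be read. The windows run from 250 bases before to 50 bases after the RefSeq start (GRCm38.p6). Capitals mark the letters that GATA factors read, GATA with an A or a T before it and an A or a G after it, on either strand. Scin lies at chr12:40134179-40134478 on the minus strand, Ccr8 at chr9:120091883-120092182 on the plus strand and Efna5 at chr17:62881268-62881567 on the minus strand.
Scin: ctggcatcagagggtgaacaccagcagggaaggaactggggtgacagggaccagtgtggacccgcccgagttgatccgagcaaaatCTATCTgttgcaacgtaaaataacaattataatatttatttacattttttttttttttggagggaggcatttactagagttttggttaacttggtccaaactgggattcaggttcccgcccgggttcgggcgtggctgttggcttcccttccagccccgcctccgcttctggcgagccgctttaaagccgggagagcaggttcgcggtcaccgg
Ccr8: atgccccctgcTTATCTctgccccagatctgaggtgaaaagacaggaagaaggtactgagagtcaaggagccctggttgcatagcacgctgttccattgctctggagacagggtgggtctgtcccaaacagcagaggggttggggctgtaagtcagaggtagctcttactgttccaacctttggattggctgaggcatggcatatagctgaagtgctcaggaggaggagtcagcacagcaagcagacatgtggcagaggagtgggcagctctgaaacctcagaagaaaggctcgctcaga
Efna5: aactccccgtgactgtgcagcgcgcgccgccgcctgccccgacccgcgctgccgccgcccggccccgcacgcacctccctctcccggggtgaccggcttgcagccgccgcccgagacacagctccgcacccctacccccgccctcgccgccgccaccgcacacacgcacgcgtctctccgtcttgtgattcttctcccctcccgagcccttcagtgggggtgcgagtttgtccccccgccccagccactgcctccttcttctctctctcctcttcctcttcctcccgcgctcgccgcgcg
Of the 8 called genes, 6 had their window searched (H1f2, Nts and Upk1a besides these 3), while Krt16 and Slc14a1 were left out of the search. A GATA match was held by 4 of the 6: Scin, Ccr8, Nts and Upk1a. The same letters occur in 29.8% of the 32851 windows of the table. The AP-1 letters TGANTCA were found in the Nts window alone, against 7.81% of all windows, and the kappaB motif in none of the 6, against 4.51%. A match is a description of these letters and not a site.

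Scin had the strongest evidence of a change. It encodes scinderin (adseverin), an actin-severing protein of the gelsolin family. At 72 h it read 10.29, 9.66, 10.05, 10.33 and 10.27 on the Malt1-/- arrays, against 7.56, 6.78, 6.54, 6.13 and 5.85 on the WT arrays. Its 48 h values were 7.30, 7.50, 7.10, 7.35 and 6.91 on the Malt1-/- arrays, against 6.11, 7.07, 7.86, 7.25 and 7.60 on the WT arrays. The genotypes were fully apart at 72 h and overlapped at 48 h. The Malt1 effect was 3.55 ± 0.33 at 72 h, an 11.7-fold difference, and 0.05 ± 0.33 at 48 h, so that it changed by 3.50 ± 0.47 (log2, SE, limma adjusted p = 6.909e-05). Most of this lay in the Malt1-/- cells, which rose by 2.89 ± 0.33 between 48 h and 72 h (adjusted p = 1.707e-06), against -0.61 ± 0.33 in WT cells (adjusted p = 0.24).

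Ccr8 encodes a chemokine receptor known from TH2 cells and regulatory T cells. It gave 9.22, 7.08, 9.56, 9.12 and 10.11 on the Malt1-/- arrays, against 7.05, 6.40, 7.58, 6.37 and 5.20 on the WT arrays at 72 h. At the earlier time the values were 6.81, 7.09, 6.0, 6.48 and 6.12 on the Malt1-/- arrays, against 6.86, 7.91, 7.56, 8.53 and 7.70 on the WT arrays. The order of the genotypes turned round between the times, although the groups overlapped at each. At 72 h Malt1-/- cells were higher by 2.50 ± 0.49 (limma adjusted p = 0.0017), while at 48 h the effect was -1.21 ± 0.49 and did not pass (adjusted p = 0.27). The change was 3.71 ± 0.70 (adjusted p = 0.0093), and both genotypes contributed: 2.52 ± 0.49 over time in Malt1-/- cells and -1.19 ± 0.49 in WT cells (adjusted p = 0.11). Replicate 2 of Malt1-/- at 72 h, at 7.08, was the array that fell among the WT values, and without the 4 arrays nearer another group the change was 4.52 ± 0.70. Without background correction it was 2.09, and from the authors' deposited values it was 2.17; neither passed (adjusted p = 0.13 and 0.11).

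Efna5 encodes ephrin-A5, a membrane-anchored ligand of Eph receptors. It read 8.32, 6.30, 7.89, 7.85 and 8.54 on the Malt1-/- arrays, against 5.33, 5.48, 4.82, 5.01 and 4.71 on the WT arrays at 72 h. At 48 h all 10 values lay between 4.92 and 5.75, with detection on 3 Malt1-/- arrays and 1 WT array. It was therefore measured well only in Malt1-/- cells at 72 h, where it was detected on all 5 arrays. The effect was 2.71 ± 0.31 at 72 h and 0.36 ± 0.31 at 48 h, a change of 2.35 ± 0.45 (limma adjusted p = 0.0093). Without background correction the Efna5 change was 1.01 and still passed (adjusted p = 0.0059). Krt16, a keratin of epithelia, had a like pattern at lower signal, with 6.98, 6.01, 6.45, 6.09 and 6.07 on the Malt1-/- 72 h arrays and 5.56, 5.0, 5.34, 4.64 and 4.79 on the WT 72 h arrays. At 48 h it was detected on 1 of 5 arrays of each genotype, with values of 4.62 to 5.76 in Malt1-/- cells and 4.73 to 5.65 in WT cells. Its change was 1.33 ± 0.27 (adjusted p = 0.020), the least secure of the 8: leaving out any 1 of 7 arrays took the adjusted p to between 0.050 and 0.077. Those arrays were Malt1-/- 72 h replicates 1 and 3, WT 72 h replicate 4, Malt1-/- 48 h replicates 1, 3 and 4, and WT 48 h replicate 4. With the variance of the 20 TH1 arrays alone its adjusted p was 0.55, and without background correction it was 0.066, with a change of 0.40.

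H1f2 encodes the linker histone H1.2, which binds the DNA between nucleosomes. Its log2 signal was 9.29, 9.32, 9.45, 9.55 and 9.26 on the Malt1-/- arrays, against 8.41, 7.78, 7.76, 8.02 and 8.23 on the WT arrays at 72 h. At 48 h the values were 8.48, 8.63, 8.26, 8.25 and 8.25 on the Malt1-/- arrays, against 7.99, 9.40, 8.74, 9.17 and 8.36 on the WT arrays. Malt1-/- cells were above all WT values at 72 h and among them at 48 h. The Malt1 effect was 1.33 ± 0.20 at 72 h and -0.36 ± 0.20 at 48 h, a change of 1.69 ± 0.28 (limma adjusted p = 0.0016). Here the genotypes moved in opposite directions over time, up by 1.00 ± 0.20 in Malt1-/- cells (adjusted p = 0.0017) and by -0.69 ± 0.20 in WT cells (adjusted p = 0.022). A second probe of the gene gave a change of 1.52 ± 0.32, with an adjusted p of 0.052 over all kept probes.

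Nts, the precursor of the peptide neurotensin, changed because an early difference narrowed. At 72 h it read 5.60, 5.46, 5.01, 5.85 and 5.84 on the Malt1-/- arrays, against 5.28, 6.09, 5.36, 7.16 and 6.25 on the WT arrays. At 48 h the values were 5.07, 4.83, 5.19, 4.98 and 5.55 on the Malt1-/- arrays, against 7.0, 7.65, 7.87, 7.37 and 7.18 on the WT arrays. All Malt1-/- values lay below all WT values at 48 h, and the genotypes overlapped at 72 h. The effect was -0.48 ± 0.23 at 72 h (limma adjusted p = 0.29) and -2.29 ± 0.23 at 48 h (adjusted p = 1.285e-08), so the change was 1.82 ± 0.32 (adjusted p = 0.0045). WT cells fell by 1.39 ± 0.23 between 48 h and 72 h (adjusted p = 0.00069), while the Malt1-/- difference over time was 0.43 ± 0.23 (adjusted p = 0.26). The call was not kept when the variance came from the 20 TH1 arrays alone (adjusted p = 0.24), with the change itself at 1.82. Without background correction the Nts change was 0.67 and passed (adjusted p = 0.0058).

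The 2 genes that went the other way each stood above background in a single group. Upk1a, a tetraspanin of the bladder lining, gave 4.68, 4.64, 4.65, 4.67 and 4.54 on the Malt1-/- arrays, against 5.40, 6.05, 5.46, 5.92 and 5.49 on the WT arrays at 72 h, and 4.47 to 4.92 at 48 h in both genotypes. It was detected on 5 of 5 WT arrays at 72 h and on none of the other 15. The fitted change was -1.15 ± 0.17 (limma adjusted p = 0.00038). Since the probe was not above background in 3 groups, its level at 72 h is given as at least 1.35-fold lower in Malt1-/- than in WT cells. Slc14a1, a urea transporter, gave 6.56, 5.64, 5.89, 5.68 and 6.18 on the Malt1-/- arrays, against 4.79, 4.65, 4.49, 4.62 and 4.87 on the WT arrays at 48 h, and 4.52 to 5.31 at 72 h in both genotypes. It was detected on 5 of 5 Malt1-/- arrays at 48 h, and otherwise on 1 WT array at 72 h. Its fitted change was -1.35 ± 0.23 (adjusted p = 0.0023), and its level at 48 h was at least 1.67-fold higher in Malt1-/- than in WT cells. With the variance of the 20 TH1 arrays alone Slc14a1 did not pass (adjusted p = 0.093). Without background correction the changes were -0.35 for Upk1a and -0.39 for Slc14a1, and both passed (adjusted p = 0.032 each). The RefSeq annotation places Slc14a1 on the same chromosome as Malt1, and likewise Gm4951, which is named below. Both genes had other probes on the array, none of which passed the detection filter.

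Below the threshold came 7 genes with an adjusted p between 0.05 and 0.10, which brought the count to 15, or 0.140% of those tested. Among them were Dgkk, a diacylglycerol kinase (1.13 ± 0.25, limma adjusted p = 0.067), Gm4951 (1.46 ± 0.32, 0.067), Gsn (1.40 ± 0.32, 0.081), Csf2 (3.09 ± 0.70, 0.081) and Gabpb1, a subunit of the transcription factor GABP (-0.91 ± 0.21, adjusted p = 0.089). The fitted values of Dgkk and Gm4951 rest on groups at background: Dgkk was detected on no WT array and was at least 1.5-fold higher in Malt1-/- than in WT cells at 72 h, and Gm4951 was detected on no Malt1-/- array at 48 h, when it was at least 2.78-fold lower in Malt1-/- than in WT cells. Gsn encodes gelsolin, the name-giving member of the family to which Scin belongs. Its values were 6.80, 5.52, 6.88, 6.78 and 7.53 on the Malt1-/- arrays, against 5.10, 4.87, 4.76, 4.54 and 5.46 on the WT arrays at 72 h. It was detected on all arrays of Malt1-/- cells at 72 h and on at most 1 array of each other group. The next genes in the downward direction were Ect2l (-1.0 ± 0.24, adjusted p = 0.11), Acot1 (-1.79 ± 0.44, 0.14), Cflar (-0.74 ± 0.20, 0.27), Fam122b (-0.88 ± 0.24, 0.27), Tmem65 (-0.83 ± 0.23, 0.27), Nusap1 (-0.58 ± 0.16, 0.27) and H2az2 (-1.04 ± 0.29, 0.27). None of these passed the test.

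Genotype differences called at one time mostly had the same sign at the other. At 72 h, 297 genes differed between the genotypes (2.77% of those tested, 198 or 1.85% higher and 99 or 0.923% lower in Malt1-/- cells), and at 48 h 149 did (1.39%, 84 or 0.783% higher and 65 or 0.606% lower). The 65 genes called at both times made up 21.9% of the 72 h calls and 43.6% of the 48 h calls, and all 65 had the same sign. Of the 297 genes called at 72 h, 269 had the same sign at 48 h and 264 had the larger size at 72 h. Of the 149 called at 48 h, 144 had the same sign at 72 h and 34 had the larger size at 72 h, so the time of calling goes with the time of the larger value. Over all 10730 genes, called or not, 63.6% had the same sign at both times. The 2 effects correlated at r = 0.51 (rho = 0.40) over these genes, a description across genes, which are not independent replicates. No gene had Malt1-/- values all above WT at one time and all below at the other. Between 48 h and 72 h, 638 genes differed in Malt1-/- cells (5.95%) and 1126 in WT cells (10.5%); of the 8 called genes, 6 were among the first and 3 among the second.

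**Figure D2:**
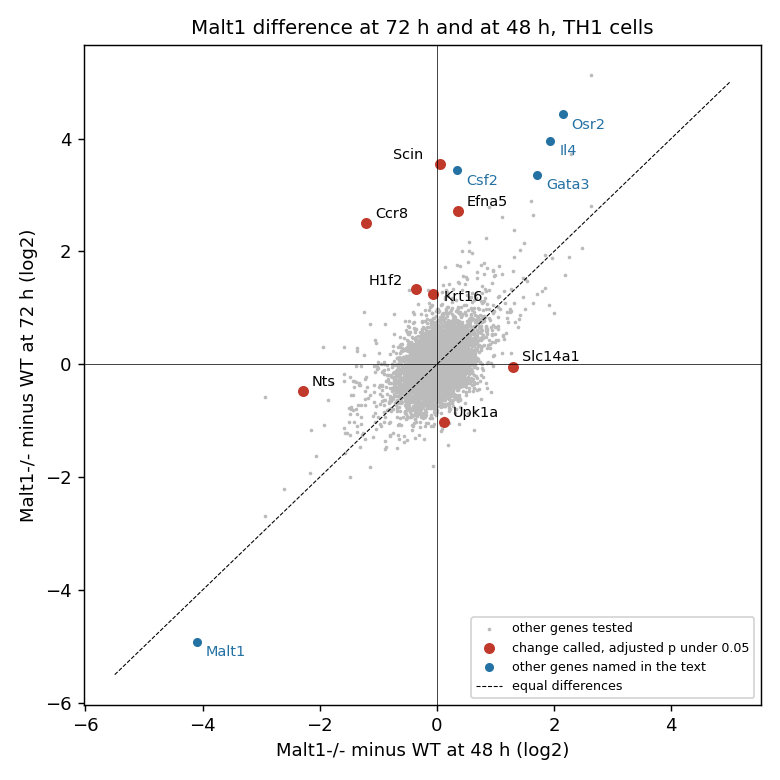
Malt1-/- minus WT at 72 h (vertical) against 48 h (horizontal) in TH1 cells, log2, 1 point per gene for the 10730 genes tested. Red points are the 8 genes whose change was called, and the dashed line marks equal differences. Scin and Efna5 sit near 0 at 48 h, and Nts lies at -0.48 at 72 h and -2.29 at 48 h.

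Among 28 lists of genes, the TH2 programme had the highest median change. The lists and their members were chosen with earlier results of these data known, so this rank is a description and no separate support. Of its 16 members 10 were tested, and 1 was called, Ccr8, against 0.0746% of all genes; 4 of the 10 had an unadjusted p under 0.05, all with a higher effect at 72 h, against 2.79% of all genes in that direction. The list's median change was 0.68, beside -0.004 over all genes, and its median Malt1 effect was 0.99 at 72 h and 0.26 at 48 h. Il4, the signature cytokine of TH2 cells, read 11.65, 10.54, 11.57, 12.47 and 12.41 on the Malt1-/- arrays, against 9.21, 7.71, 7.58, 6.65 and 7.69 on the WT arrays at 72 h. At 48 h it read 8.55, 10.52, 8.78, 10.03 and 9.52 on the Malt1-/- arrays, against 6.31, 8.34, 8.58, 7.55 and 6.92 on the WT arrays. The genotypes were apart at 72 h, and at 48 h only 1 Malt1-/- value lay below the highest WT value. Its effect was 3.96 ± 0.42 at 72 h, or 15.6-fold, and 1.94 ± 0.42 at 48 h, or 3.83-fold, both called. The change of 2.02 ± 0.59 did not pass (limma adjusted p = 0.33, with a 95% interval of 0.83 to 3.22 that is not adjusted for the number of genes).

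Gata3, which encodes the factor that directs TH2 cells, had 11.14, 9.90, 10.93, 11.41 and 11.79 on the Malt1-/- 72 h arrays, against 7.59, 8.17, 8.0, 7.26 and 7.34 on the WT 72 h arrays. Its 48 h values were 9.21, 9.51, 9.02, 9.72 and 9.60 on the Malt1-/- arrays, against 7.09, 8.03, 8.15, 7.39 and 7.85 on the WT arrays. Malt1-/- cells lay above all WT cells at both times, by 3.36 ± 0.36 at 72 h and 1.71 ± 0.36 at 48 h. Its change of 1.65 ± 0.51 did not pass (limma adjusted p = 0.42). Over time Gata3 rose by 1.62 ± 0.36 in Malt1-/- cells (adjusted p = 0.0056), against -0.03 ± 0.36 in WT cells. Il13 had an effect of 1.29 ± 0.24 at 72 h (adjusted p = 0.00075) and 0.18 ± 0.24 at 48 h (adjusted p = 0.85), with a change of 1.11 ± 0.34 (adjusted p = 0.38). Il5 was detected on 2 Malt1-/- arrays at 72 h and 1 at 48 h, on no WT array, and its change was 0.11 ± 0.25. Ccr4, a second receptor known from TH2 cells, had a change of -0.35 ± 0.33, and Il10 one of -0.68 ± 0.87. Of the 10 members, 8 had a change above 0, and Ccr8 was the 1 that passed the test.

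**Figure D3:**
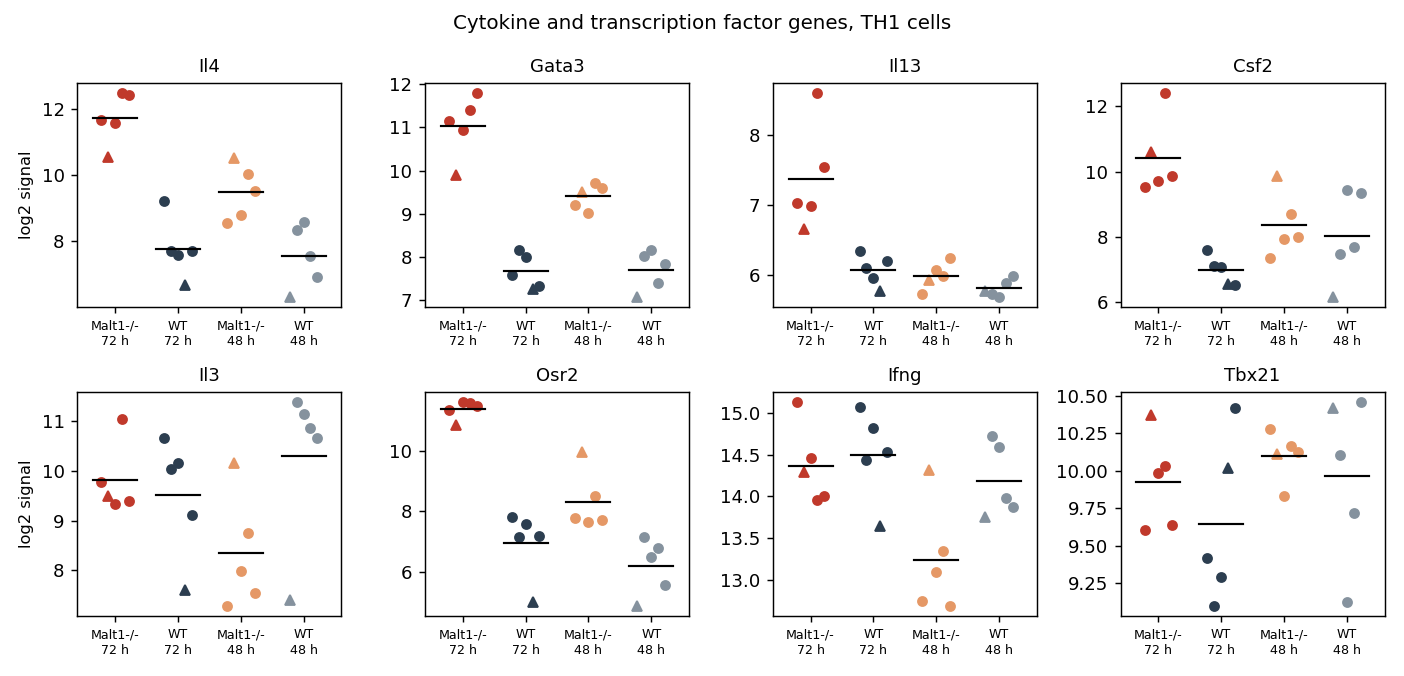
Log2 signal of 8 cytokine and transcription factor genes, 1 point per array, for Malt1-/- 72 h, WT 72 h, Malt1-/- 48 h and WT 48 h TH1 cells (5 arrays each, bars are means, triangles the 4 arrays nearer another group's mean). Il4, Gata3 and Osr2 are higher in Malt1-/- cells at both times and highest at 72 h. None of these 8 genes was called for the change of the Malt1 effect.

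Among 23 helper cytokine genes none was called, and 4 had an unadjusted p under 0.05, all upward (Csf2, Il4, Il13 and Il3), against 2.79% of all genes in that direction. The list's median change was 0.11. Csf2, which encodes the growth factor GM-CSF, read 9.51, 10.60, 9.71, 12.40 and 9.85 on the Malt1-/- arrays, against 7.61, 7.11, 7.08, 6.55 and 6.53 on the WT arrays at 72 h. At the earlier time the values were 7.35, 9.86, 7.95, 8.69 and 8.0 on the Malt1-/- arrays, against 6.17, 7.48, 9.43, 7.69 and 9.34 on the WT arrays. The genotypes were fully apart at 72 h and overlapped at 48 h, with effects of 3.44 ± 0.50 (10.9-fold) and 0.35 ± 0.50. Its change of 3.09 ± 0.70 (limma adjusted p = 0.081) passed in 2 of the 20 fits that left out 1 array. These left out Malt1-/- 48 h replicate 2 (adjusted p = 0.011) and WT 48 h replicate 1 (adjusted p = 0.0059). The highest adjusted p over the 20 fits was 0.22. Il3, a growth factor for blood progenitors and mast cells, gave 7.29, 10.17, 7.99, 8.76 and 7.54 on the Malt1-/- arrays, against 7.41, 11.39, 11.15, 10.86 and 10.67 on the WT arrays at 48 h. At 72 h the groups overlapped, from 9.34 to 11.05 in Malt1-/- and from 7.60 to 10.66 in WT cells. Il3 had a change of 2.24 ± 0.79 (adjusted p = 0.61), and of 3.02 ± 0.53 (adjusted p = 0.0019) without the 4 arrays nearer another group. Il21 was higher in Malt1-/- cells at both times, by 1.59 ± 0.42 at 72 h and 2.19 ± 0.42 at 48 h, with a change of -0.60 ± 0.60. Il2, the T cell growth factor, ran from 9.32 to 13.06 in WT cells at 72 h, and its change was 1.62 ± 1.12 (adjusted p = 0.95).

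The genes that define TH1 cells gave no call. Of the 17 TH1 programme genes tested, 1 had an unadjusted p under 0.05 (Eomes, a T-box factor related to T-bet), against 5.58% of all genes. The median change was 0.09. Ifng ranged from 13.95 to 15.13 in Malt1-/- cells and from 13.64 to 15.06 in WT cells at 72 h, and at 48 h from 12.69 to 14.32 in Malt1-/- cells and from 13.76 to 14.72 in WT cells. Its change was 0.81 ± 0.67 (limma adjusted p = 0.97). Tbx21 had an effect of 0.28 ± 0.26 at 72 h and 0.14 ± 0.26 at 48 h, and a change of 0.14 ± 0.36, with a 95% interval of -0.59 to 0.88. Eomes was at 4.53 to 5.52 in Malt1-/- and 4.76 to 5.21 in WT cells at 72 h, where it was detected on 1 of these 10 arrays, and its change was 0.93 ± 0.43 (adjusted p = 0.85). Cxcr3, the receptor of interferon-induced chemokines, had a change of -0.62 ± 0.47 (adjusted p = 0.95), and its ligand Cxcl10 one of 0.98 ± 0.51 (adjusted p = 0.91).

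In the pathway that MALT1 serves, none of 28 NF-kappaB pathway and target genes was called, against 0.0746% of all genes. Of the 28, 2 had an unadjusted p under 0.05, both downward, against 2.80% of all genes in that direction. They were Cflar, an inhibitor of caspase-8, and Bcl3, a nuclear partner of NF-kappaB. Bcl3 had an effect of -0.96 ± 0.22 at 72 h (limma adjusted p = 0.010) and 0.12 ± 0.22 at 48 h, with a change of -1.08 ± 0.31 (adjusted p = 0.33). Nfkb2, the precursor of p52, had an effect of 0.81 ± 0.21 at 72 h (adjusted p = 0.026) and of 0.78 ± 0.21 at 48 h, which did not pass (adjusted p = 0.052), and its change was 0.03 ± 0.30 (95% interval -0.57 to 0.64). Rel had an effect of -0.16 ± 0.21 at 72 h and of -0.62 ± 0.21 at 48 h, and a change of 0.46 ± 0.30. Of 13 genes for substrates of the MALT1 protease, none was called, and 1 had an unadjusted p under 0.05, against 5.58% of all genes. It was Zc3h12d (-0.65 ± 0.27, limma adjusted p = 0.78). Tnfaip3, the substrate A20, which restrains NF-kappaB, had a change of 0.90 ± 0.47 (adjusted p = 0.91). Of 16 targets of the RNA-binding proteins Regnase-1 and Roquin, none was called and none had an unadjusted p under 0.05.

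**Figure D4:**
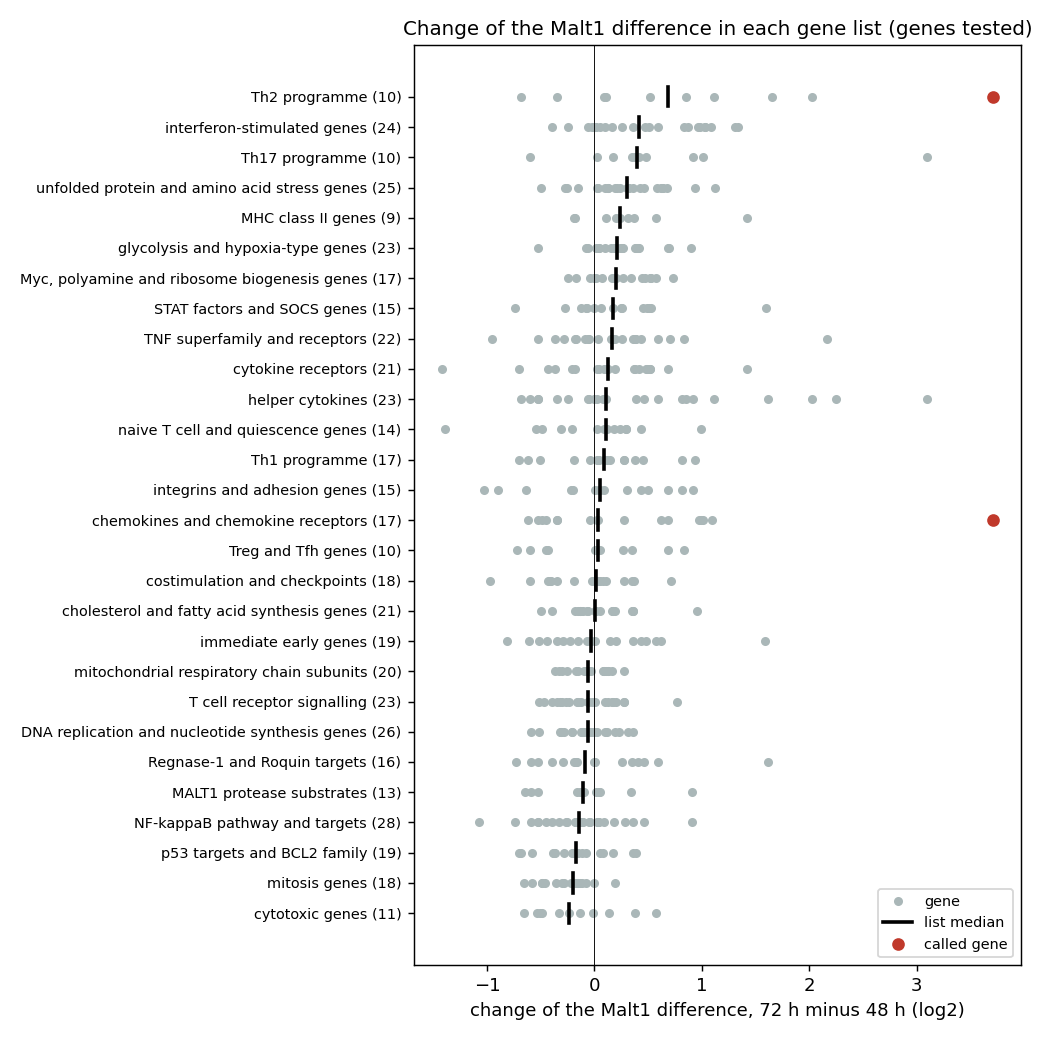
Change of the Malt1 difference, 72 h minus 48 h (log2, horizontal), for each gene of 28 lists (vertical, number tested in brackets) in TH1 cells. Grey points are genes, black ticks list medians and red points the called gene, Ccr8, which stands in 2 lists. Medians run from -0.24 for cytotoxic genes to 0.68 for the TH2 programme.

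Over all 28 lists, Ccr8 was the only member called, in the TH2 list and among chemokines and their receptors (1 of 17). Medians ran from -0.24 for cytotoxic genes to 0.68 for the TH2 programme. Next to the TH2 list came interferon-stimulated genes, of which 24 were tested, with a median change of 0.41. Of them 19 were above 0, against 5316 of all 10730 genes. An unadjusted p under 0.05 was held by 1, against 5.58% of all genes: Mx1, an antiviral GTPase (1.03 ± 0.44, limma adjusted p = 0.80). Standard errors differed widely between the interferon-stimulated genes, from 0.20 for Psmb9 to 0.99 for Isg15, whose change was 0.99. The change of Rsad2 was 1.34 ± 0.93. The TH17 programme had a median of 0.40 over 10 genes, with Csf2 as its largest change, and the 25 genes of the unfolded protein and amino acid stress responses one of 0.30. At the other end, mitosis genes had a median of -0.20, with 17 of 18 below 0 and 2 at an unadjusted p under 0.05, Nusap1 and Cenpa. Of all genes, 2.80% had such a p in the downward direction. The median over all genes tested was -0.004. Socs2, an inhibitor of cytokine signalling, had a change of 1.60 ± 0.45 (adjusted p = 0.27), Ccr7, the homing receptor for lymph nodes, one of 0.99 ± 0.43 (adjusted p = 0.82), and Tnfsf11, which encodes RANKL, one of 2.17 ± 0.68 (adjusted p = 0.43). Ctla4 and Icos, receptors that restrain and boost T cell activation, had changes of 0.35 ± 0.58 and 0.01 ± 0.34. The endothelin gene Edn1 (1.44 ± 0.54, adjusted p = 0.69) and the sterol reductase gene Dhcr7 (0.17 ± 0.34, adjusted p above 0.99) had called Malt1 effects at both times, upward and downward in that order.

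Markers of other cell types were followed in the same way. None of the tested members of 10 lists of cell markers and sex-linked genes was called, and 1 had an unadjusted p under 0.05, Lum, a proteoglycan of stromal cells. Of all genes, 5.58% had such a p. Lum was detected on 5 of 5 Malt1-/- arrays at 72 h and on 2 of the other 15, and its change was 1.13 ± 0.30 (limma adjusted p = 0.21). Of the 10 stromal and endothelial markers, 3 were tested; their summed signal was 153 to 243 in Malt1-/- and 94.5 to 174 in WT cells at 72 h, and 127 to 156 in Malt1-/- and 111 to 155 in WT cells at 48 h. The 10 myeloid markers tested of 17 summed to 2789 to 4319 in Malt1-/- and 2880 to 6061 in WT cells at 72 h. At 48 h they summed to 2409 to 3025 in Malt1-/- and 3348 to 4383 in WT cells, without overlap. This rests on few genes: in WT cells at 48 h, Cst3, Ctss and Fcer1g were detected on all 5 arrays and the other 7 on none. In Malt1-/- cells at 48 h, 2 were detected on all 5 arrays and 5 on none. No gene of the myeloid list differed between the genotypes at 48 h by test. Of all 10730 genes tested, 480 were likewise without overlap at 48 h, in either direction. That count is of single genes and not of sums. Lyz1, Lyz2 and S100a9 were detected on none of the 20 arrays, and S100a8 on 2 Malt1-/- arrays at 72 h. The 6 B cell markers tested of 10 summed to 175 to 405 in Malt1-/- and 228 to 487 in WT cells at 72 h, and to 162 to 209 in Malt1-/- and 178 to 535 in WT cells at 48 h. Cd79b was the B cell marker detected most often, and Fcrla was detected on 2 of the 20 arrays. The part of these cells in the results was not tested.

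Leaving out the 4 arrays nearer another group brought in 23 more genes. Osr2, Lad1 and Il3 among them, like Rsad2, Isg15, Psmb9, Cdkn3 and Slc13a3, are named after their values were seen and not by the rule for named genes. Osr2, a zinc finger factor, read 11.35, 10.86, 11.62, 11.59 and 11.48 on the Malt1-/- arrays, against 7.81, 7.16, 7.58, 5.02 and 7.18 on the WT arrays at 72 h. The 48 h arrays gave 7.79, 9.97, 7.64, 8.52 and 7.71 on the Malt1-/- arrays, against 4.88, 7.14, 6.49, 6.81 and 5.58 on the WT arrays. It was higher in Malt1-/- cells on every array at each time, by 4.43 ± 0.38 at 72 h and 2.15 ± 0.38 at 48 h, and its change was 2.28 ± 0.54 with all arrays (limma adjusted p = 0.11) and 2.66 ± 0.30 without the 4 (adjusted p = 4.339e-06). Lad1, which encodes ladinin, gave 5.44, 7.05, 6.03, 5.15 and 4.72 on the Malt1-/- arrays, against 5.19, 10.12, 8.62, 9.17 and 9.99 on the WT arrays at 48 h, so that replicate 1 of WT stood with the Malt1-/- cells. Its change was 2.37 ± 0.73 with all arrays (adjusted p = 0.42) and 3.36 ± 0.45 without the 4 (adjusted p = 6.049e-05). In the same comparison Il4 gave 2.61 ± 0.54 (adjusted p = 0.014), Csf2 3.77 ± 0.68 (0.0032), Tnfsf11 2.62 ± 0.51 (0.0090), Gsn 1.64 ± 0.25 (0.00027), Lum 1.58 ± 0.24 (0.00027), Bcl3 -1.41 ± 0.33 (0.049) and Acot1 -2.23 ± 0.47 (0.018). Gata3 gave 2.01 ± 0.54 and did not pass (adjusted p = 0.14). Without the 4, 0.289% of all genes were called, and by list 2 of 10 TH2 genes, 3 of 23 helper cytokine genes and 1 each of the chemokine, TNF superfamily, NF-kappaB, TH17 and stromal marker lists, some genes standing in several lists. None of the 24 interferon-stimulated genes was called; 7 had an unadjusted p under 0.05, all upward, against 3.40% of all genes in that direction. With all 20 arrays but no background correction, Il4, Gata3 and Csf2 did pass, each at an adjusted p of 0.032, and so did Osr2 (adjusted p = 3.398e-05). Most settings did not call them. Of 15 alternatives other than leaving out 1 array, Il4 was called in 5, Gata3 in 3, Csf2 in 6 and Osr2 in 6. Of the 20 fits that left out 1 array, Il4 and Gata3 were called in 0, and Csf2 and Osr2 in 2 each.

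**Figure D5:**
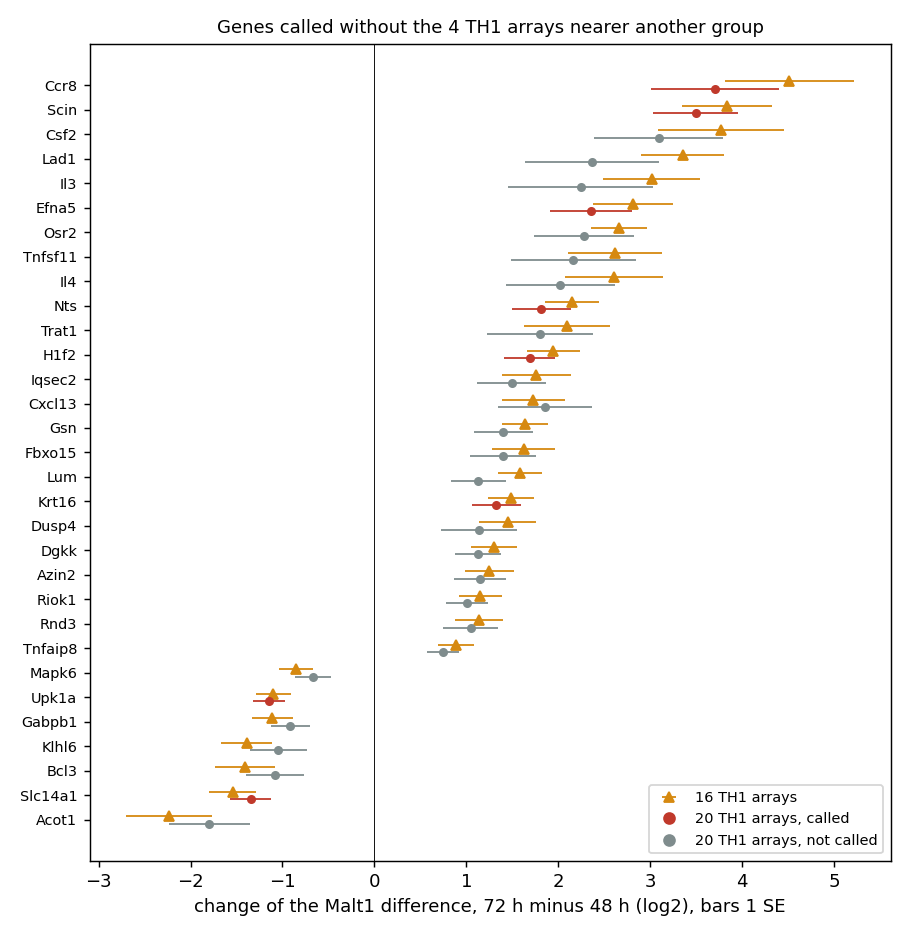
Change of the Malt1 difference, 72 h minus 48 h (log2, horizontal, bars 1 SE), for the 31 genes called without the 4 TH1 arrays nearer another group's mean. Triangles are estimates from the other 16 TH1 arrays and circles those from all 20, red where called and grey where not. All 8 red genes are kept, and every gene has the same sign in both. The 16 arrays are among the 20 and the genes were picked by their call in the 16, so this is no separate support.

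The same comparison in TH17 cells uses 20 other arrays. There 13 genes were called (0.121% of those tested), none of them among the 8 of TH1 cells. Of these 8, H1f2 came nearest a call in TH17 cells, with a limma adjusted p of 0.056. The 8 genes had TH17 changes of 0.40 ± 0.47 for Scin, 0.14 ± 0.70 for Ccr8, 0.65 ± 0.45 for Efna5, 0.01 ± 0.32 for Nts, 1.17 ± 0.28 for H1f2, -0.10 ± 0.27 for Krt16, 0.10 ± 0.17 for Upk1a and 0.07 ± 0.23 for Slc14a1. A direct test of the TH1 change minus the TH17 change called 2 genes (0.0186%). They were Upk1a, at -1.25 ± 0.24 (limma adjusted p = 0.048), and Cdkn3, a phosphatase of the cell cycle, at -1.39. For Scin that difference was 3.09 ± 0.66 (adjusted p = 0.097) and for Ccr8 3.57 ± 0.99 (adjusted p = 0.32). For the other 5 called genes the adjusted p ran from 0.19 for Slc14a1 to 0.74 for H1f2. Of the 8 genes, Upk1a thus passed this test and the other 7 did not. The test holds the same TH1 change by which the 8 were picked, so it is no separate support. Upk1a was detected on 5 of 5 WT TH1 arrays at 72 h and on no array of the other TH1 groups. Its fitted values there rest on groups at background.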

How the data were processed

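RNA of 40 samples of mouse T cells was measured on Illumina MouseWG-6 v2 bead arrays, of which the 20 TH1 arrays carry the contrast. The deposited raw values are intensity, 1 bead-summarised signal per probe, with no background subtraction or scaling by the authors, per the values themselves. Per the file headers, the deposited detection column is a p-value for signal over background, written as its complement to 1. The authors' deposited value table is in log2 units; it was checked to equal log2 of the quantile-normalised signals centred on each probe's median, within 0.0149. No software or genome build is named in the labels.

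Signals were background-corrected by detection p (neqc, limma 3.58.1, R 4.3.3, offset 16), quantile normalised over 40 arrays and put on the log2 scale. The offset makes differences of dim probes too small. Probes detected at p under 0.05 on at least 5 of 40 arrays were kept, 20739 of 45281. The platform table gives 34885 probes 1 gene symbol, 18 several and 10378 none. The kept probe with the highest mean stood for each of 10730 genes, 4274 of which had several. limma fitted 8 group means over all 40 arrays, with moderated variances and Benjamini-Hochberg adjustment over all genes, and genes were called at an adjusted p under 0.05. For a gene detected on no array of a group, signals under the lowest detected signal of their array were raised to it for the bound on its fold. The script was tested on simulated data. Over 30 pairs of same-numbered arrays, the median correlation of residuals was -0.01 (-0.42 to 0.35), against -0.006 over 120 pairs of other numbers. Same-numbered arrays thus showed no general tendency to deviate together. This cannot exclude a shared animal or culture, since the labels do not say how the replicates were numbered.

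Named were Malt1, every called gene, the genes of smallest p up to 10 rises and 10 falls, a fixed set of T cell genes, and up to 3 genes of smallest p in each list. The members, lists and rule were chosen with earlier results of these data known. Alternatives covered background correction, scaling, the filter, the probe rule, the variance model, a replicate block and leaving out arrays.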

Additional observations from a re-analysis of the deposited data

Results flagged for a closer look

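The 8 genes called for the change of the Malt1 effect are flagged because the genotype difference itself differed between 72 h and 48 h by test (limma): Scin by 3.50, Ccr8 by 3.71, Efna5 by 2.35, Nts by 1.82, H1f2 by 1.69, Krt16 by 1.33, Upk1a by -1.15 and Slc14a1 by -1.35 (log2). Upk1a is also flagged because its TH1 change differed from its TH17 change, by -1.25 (adjusted p = 0.048).

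Of 212 groups of 5 TH1 arrays checked for a value far from the rest, 15 held one, and chance gives about 1 in 20. Replicate 1 of WT at 48 h was the array for 4 of them: it read 12.01 for Il2 (others 14.53 to 15.04), 7.41 for Il3 (10.67 to 11.39), 6.64 for Tnfsf11 (9.81 to 10.85) and 9.88 for Tmem65 (9.45 to 9.55). These 3 cytokine genes were low on an array whose overall profile was nearest to the Malt1-/- 48 h mean and to replicate 4 of WT at 72 h. That WT 72 h array read 5.02 for Osr2 (7.16 to 7.81). Replicate 2 of Malt1-/- at 48 h, whose profile was nearest to the Malt1-/- 72 h mean, read 5.76 for Krt16 (4.62 to 4.92) and 9.71 for Tnfaip3 (8.96 to 9.15). Replicate 4 of WT at 48 h read 9.37 for Il17f (4.45 to 4.87).

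The other single values were replicate 5 of Malt1-/- at 72 h at 4.54 for Upk1a (4.64 to 4.68), replicate 4 of Malt1-/- at 72 h at 11.05 for Il3 (9.34 to 9.78), replicate 5 of WT at 72 h at 5.08 for Il5 (4.57 to 4.70) and 9.32 for Il2 (11.99 to 13.06), replicate 1 of WT at 72 h at 4.44 for S100a8 (4.55 to 4.57), and replicate 3 of Malt1-/- at 48 h at 6.20 for Dhcr7 (6.75 to 6.87) and 9.08 for Socs2 (9.87 to 10.09). The Upk1a and S100a8 values lie at background.

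A signal also appeared in 3 probes that did not stand for their gene. In a fit of all kept probes, a second probe of Slc13a3, which encodes a carboxylate transporter, changed by 1.68 ± 0.27 (limma adjusted p = 0.0025). It was detected on 5 of 5 Malt1-/- arrays at 72 h and no WT array at 72 h, and on 1 array of each genotype at 48 h, while the brighter probe used for the gene gave 0.86 ± 0.32. A second probe of Dgkk changed by 1.52 ± 0.28 (adjusted p = 0.0096), and a second probe of Osr2 by 2.10 ± 0.43 (adjusted p = 0.036).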

How the results depend on the processing

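The count of 8 genes called rests on the processing and on single arrays. It was 13 without background correction, 13 from the authors' deposited value table (6 of the 8 kept in each), 15 with array weights, 5 with quantile normalisation over the 20 TH1 arrays, 5 with only those arrays in the fit, 5 with detection on at least 10 arrays and 15 at an adjusted p under 0.10. It was 11 with median scaling, which moved the median change over all genes to 0.121, 7 without the detection filter, 8 with detection on at least 5 TH1 arrays, 8 with a variance trend and 9 with the probe of largest variance. Leaving out 1 TH1 array gave 7 to 18 genes, the most without replicate 2 of Malt1-/- at 48 h (18), replicate 1 of WT at 48 h (17) and replicate 5 of WT at 72 h (16). Without the 4 TH1 arrays nearer another group it was 31, and in alternatives added after seeing the data 42 without the 8 such arrays of the series, 20 without both Malt1-/- replicate 2 arrays and 11 over all kept probes. With the replicate block 9 genes were called, all 8 among them. Scin, Efna5 and H1f2 were called in all 15 other alternatives and all 20 that left out 1 array. Without the detection filter another probe, detected on 2 of the 20 TH1 arrays, stood for Upk1a and gave 0.06 (adjusted p above 0.99). Slide as a block was not run, since no slide is named. Where no value above shows it, the cause was not tested.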
